A study of Homo sapiens with 15 samples.

Results

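AGMAT and 8 other genes of polyamine metabolism, namely ODC1, OAZ1, OAZ2, AMD1, SRM, SMS, SAT1 and ARG2, were examined on 15 dual-color oligonucleotide arrays of A549 cells, an established human lung adenocarcinoma line. The genes were chosen by name, and every probe listed under one of these names was taken, which gave 15 of the 41000 probes and 9 of the 30484 gene names on the array. Cells received 20 nM of either a synthetic miRNA or an LNA antisense oligonucleotide (antagomir) against the same miRNA, and RNA was taken 24 h later. There were 3 arrays for each of miR-574-3p, miR-565, miR-766, miR-181d and miR-629*. On every array the overexpressing cells carried Cy5 and the antagomir cells carried Cy3. No dye was swapped and no array held untransfected cells, so that dye and treatment cannot be told apart within a miRNA. AGMAT was put forward because of its ratio at miR-565, and the values of all members at that miRNA are therefore given as a description without a test. Tests are given for the other 4 miRNAs.

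Polyamines are small cations that bind nucleic acids and are needed for growth and translation. Putrescine is made from ornithine by ornithine decarboxylase (ODC1), and ornithine comes from arginine through arginase, of which ARG2 is the mitochondrial form. AGMAT is annotated as agmatinase, an enzyme that releases putrescine from agmatine. Spermidine synthase (SRM) and spermine synthase (SMS) extend putrescine with aminopropyl groups, which are supplied by S-adenosylmethionine decarboxylase (AMD1). The antizymes OAZ1 and OAZ2 bind ornithine decarboxylase and direct it to the proteasome, and SAT1 acetylates spermidine and spermine for export or breakdown.

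AGMAT was measured by 2 probes on the minus strand of chromosome 1 (positions in the array files, NCBI36), and the results below turn on the difference between them. The brighter one, A_23_P103720, lies at 15772683 to 15772742, and the dimmer one, A_24_P936171, begins 696 bases nearer to the 3′ end at 15771987 to 15772046. Each probe is 60 bases long, and their longest common stretch is 5 bases. Whether they lie in an exon or a UTR was not assigned, since no annotation of that build was used here. The first 30 bases of each are shown 5′ to 3′ because the probes have almost nothing in common.
A_23_P103720: aaccgtctgagtcttgtgctcttcaagaca
A_24_P936171: ttttgatgatctgcttcctagagtattgag

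The mature sequences of 3 of the miRNAs were taken from RefSeq (GRCh38.p14) and are shown with the seed, bases 2 to 8, in capitals. RefSeq lists miR-629* as miR-629-3p and miR-181d as miR-181d-5p.
miR-181d: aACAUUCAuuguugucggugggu
miR-574-3p: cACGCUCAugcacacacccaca
miR-629*: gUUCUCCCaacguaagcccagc
No seed is shared among them. The complement of the seed, TGAATGT for miR-181d, TGAGCGT for miR-574-3p and GGGAGAA for miR-629*, was searched on the strand of the probe. It was in 0 of the 15 member probes in each case, against 0.893%, 0.132% and 0.654% of all 41000 probes. These windows are the probes only and not the transcripts.

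Signals are the processed intensities that the authors' scanner software wrote, and a ratio is the log2 of Cy5 over Cy3. The labels do not say whether the 3 arrays of a miRNA are separate transfections, so p-values measure the spread between arrays, which may be technical. Between 68.1% and 75.5% of the probes on an array were well above background in a given channel. Replicate 1 of miR-565 stood apart from the other arrays. Its log2 ratios had an SD of 0.94, against 0.29 to 0.53 on the other 14, and 20.6% of its probes were past 2-fold, against 1.18% to 6.75%. The AGMAT ratios at miR-565 and the counts of members called are given with and without it. The arrays lay on 4 slides, of which 1 held miR-766 alone, so that slide and miRNA cannot be told apart there. All arrays of miR-181d shared a slide, as did all arrays of miR-629*. The correlation estimated within slides was 0.73 for log2 ratios, 0.73 for Cy5 signals and -0.23 for Cy3 signals. Fits without a slide block, the main fit among them, treat arrays as independent. Their p-values do not allow for this correlation, and the agreement between arrays of a miRNA may partly reflect a shared slide. All 10 markers of an epithelial carcinoma line were well above background in both channels of all arrays. This held for 2 of 3 alveolar type II, 1 of 4 fibroblast, 2 of 4 leukocyte and 0 of 3 endothelial markers.

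The 2 AGMAT probes differed most at miR-565. For the dimmer probe the log2 ratio was -1.26, -2.04 and -2.22 on replicates 1 to 3, with a mean of -1.84 ± 0.51 (SD, n = 3), so that the signal of the overexpressing cells was 3.58-fold lower, or 4.38-fold lower without replicate 1. No other array came near these values, as the ratio ran from -0.60 to 0.46 over the 12 arrays of the other miRNAs. For the brighter probe the log2 ratio at miR-565 was 0.62, -0.06 and 0.02, with a mean of 0.19 ± 0.37 (SD, n = 3), or -0.02 without replicate 1. Thus the brighter probe was raised on replicate 1 only and was close to 0 on the other 2 arrays, on which the dimmer probe was lowest.

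**Figure D1:**
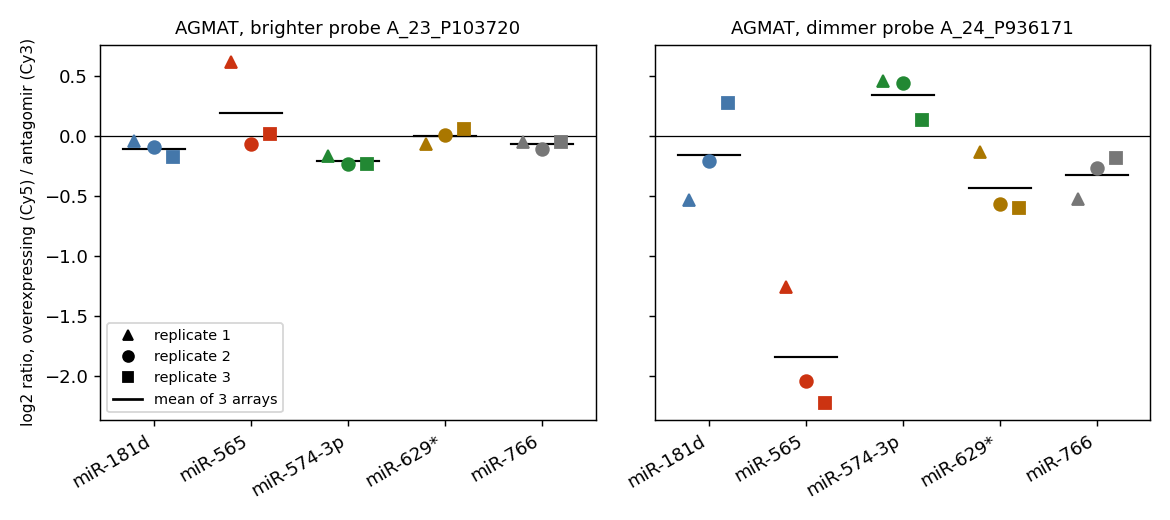
Log2 ratio of overexpressing (Cy5) over antagomir (Cy3) cells for both AGMAT probes on each array, by miRNA, with the mean of 3 arrays as a line. The dimmer probe lies at -1.26 to -2.22 on the miR-565 arrays, and the brighter probe at 0.62 on replicate 1 and near 0 on the other 2.

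The low ratio of the dimmer probe went with a high signal in the antagomir cells. Fewer cells of a kind and less RNA per cell cannot be told apart in such bulk RNA. Its Cy3 signal was 487, 394 and 350 on the miR-565 arrays, all above the range of 69.5 to 164 (median 106) on the other 12 arrays. Its Cy5 signal was 203, 95.7 and 75.1, of which only replicate 1 was above the range of 46.0 to 146 on the other 12. The probe was well above background in both channels of all 15 arrays. After quantile normalization within each dye, the Cy3 signal exceeded the mean of the 12 other arrays by 1.91, 1.82 and 1.76 on the log2 scale, while the SD of those 12 was 0.22. In Cy5 the difference was 0.84, -0.06 and -0.25, with an SD of 0.33. Against the mean of the other 4 miRNAs, the probe had the second largest rise in Cy3 of the 31345 probes tested. Its mean ratio at miR-565 was the 148th lowest, and the 11th lowest without replicate 1. AGMAT was put forward by its ratio at miR-565, so these ranks follow from that choice and are a description only.

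For the brighter probe the antagomir channel did not move in this way. Its Cy3 signal at miR-565 was 1530, 1276 and 1226, and the 12 other arrays ranged from 929 to 1499. Its Cy5 signal was 2356 on replicate 1, above the range of 966 to 1320 on the other 12, and 1224 and 1240 on replicates 2 and 3. Within the slide it shared with miR-181d, replicate 1 of miR-565 was 1.90 higher than miR-181d in Cy3 for the dimmer probe and 0.03 higher for the brighter one (log2). On the slide shared with miR-574-3p, replicates 2 and 3 were 2.02 higher for the dimmer probe and 0.12 lower for the brighter one, written as -0.12. These differences within a slide rest on 1 and 2 arrays of miR-565 and were not tested. Over the 15 arrays the ratios of the probes had a Pearson correlation of -0.50, and of -0.64 without replicate 1 of miR-565, across arrays that share slides. DNAJC16, whose gene runs on the opposite strand next to AGMAT, had mean log2 ratios at miR-565 of 0.22 and 0.09 on its 2 probes. Whether the dimmer AGMAT probe binds another transcript was not tested.

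**Figure D2:**
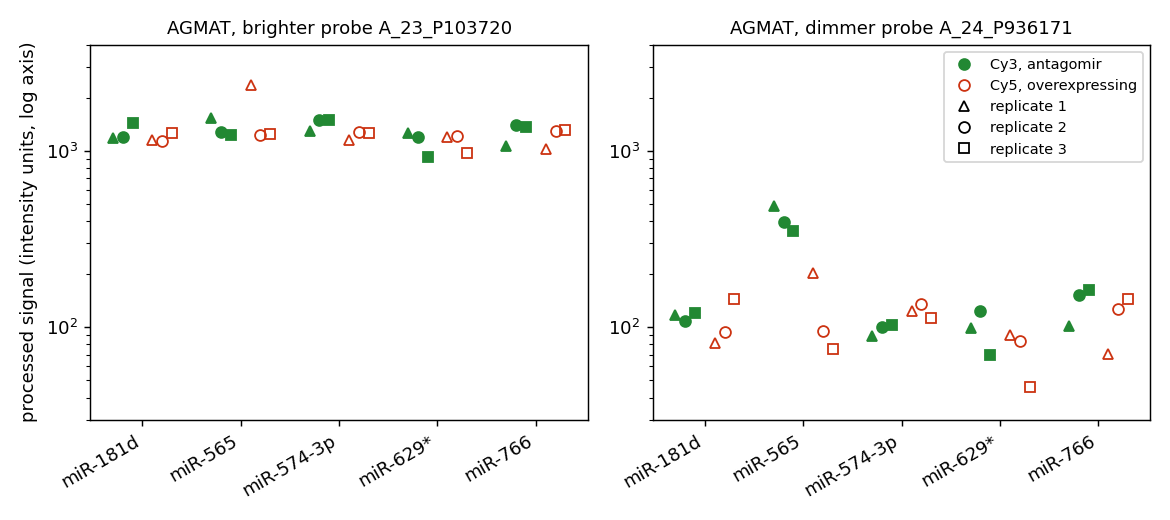
Processed signal (log axis) of both AGMAT probes in the antagomir (Cy3, filled) and overexpressing (Cy5, open) channels on each array, by miRNA. The dimmer probe is at 350 to 487 in Cy3 on the 3 miR-565 arrays, above all 12 other arrays.

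At the other miRNAs neither AGMAT probe was called in the limma fit of 15 arrays. The dimmer probe had log2 ratios of 0.46, 0.44 and 0.13 at miR-574-3p, all above 0, with a mean of 0.35 (SE 0.19, adjusted p = 0.380). It had -0.13, -0.57 and -0.60 at miR-629*, all below 0, with a mean of -0.43 (SE 0.19, adjusted p = 0.173), and the adjusted p was 0.0452 without replicate 1 of miR-565. At miR-181d its ratios lay on both sides of 0, at -0.53, -0.20 and 0.28, and at miR-766 they were -0.52, -0.26 and -0.18. The ratio at miR-574-3p exceeded the mean of the other 4 miRNAs by 1.03, given without a test since that mean holds the miR-565 values for which AGMAT was put forward. With the miR-565 arrays left out the difference was 0.65 (SE 0.17, limma adjusted p = 0.0857).

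The brighter probe was slightly lower in cells overexpressing miR-574-3p, with log2 ratios of -0.16, -0.23 and -0.23. Its mean of -0.21 had an adjusted p of 0.311 in the fit of 15 arrays, of 0.00495 without replicate 1 of miR-565 and of 0.00965 without all miR-565 arrays (limma). In the last of these fits the brighter probe was higher in the antagomir cells of miR-574-3p than in those of the other 3 miRNAs, by 0.17 (SE 0.02, limma adjusted p = 0.00201), and differed in Cy5 by 0.01 (adjusted p = 0.964). The dimmer probe differed in the opposite direction in the same Cy3 comparison, by -0.28 (SE 0.10, limma adjusted p = 0.110). That fit has no slide block, and most of its slides held a single miRNA, so that slide and miRNA are largely tied in it. At miR-181d, miR-629* and miR-766 the ratio of the brighter probe stayed between -0.17 and 0.06 on all 9 arrays.

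The probes whose log2 ratio followed the brighter AGMAT probe most closely over the 15 arrays were those of AKR1A1 (Pearson r = 0.98), D15Wsu75e (r = 0.98), LOC644096 (r = 0.98), C9orf127 (r = 0.98) and CBX8 (r = 0.98). All 5 were highest on replicate 1 of miR-565 among the arrays of that miRNA, with log2 ratios of 0.36 to 0.99 there. Over the 14 arrays without it, AKR1A1 again came first (r = 0.93), followed by ZSCAN16, ACTA2, ENST00000305709 and P4HA2 (r of 0.92 to 0.91). These are descriptions over arrays that share slides and processing. For the dimmer probe, an addition made after the values were seen, NDUFB4 came first in both cases (r = 0.91 over 15 arrays and r = 0.92 over 14). The NDUFB4 probe was lower in the overexpressing cells on all 3 miR-565 arrays, at -0.48, -0.55 and -0.63. Each of these probes was chosen by its correlation with AGMAT, so its pattern over the arrays used follows from that choice.

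Apart from the dimmer AGMAT probe, the members departed from the other arrays at miR-565 mainly on replicate 1. The clearest case was AMD1, whose product limits the supply of aminopropyl groups. Its brighter probe had log2 ratios of -1.45, 0.19 and 0.11, and its second probe had -0.999, -0.22 and -0.14. On replicate 1 the Cy5 signal of the brighter probe was 6847, below the range of 9482 to 15687 on the 12 arrays of other miRNAs, whereas its Cy3 signal of 18712 was above their range of 8429 to 15583. After normalization within the dye, replicate 1 differed from those 12 arrays by -1.38 in Cy5 and by 0.08 in Cy3. SAT1, the acetyltransferase of polyamine breakdown, had log2 ratios of -0.78, 0.15 and 0.15 on its brighter probe and of -0.82, 0.10 and 0.08 on the other. Here too the difference was in Cy5 (-0.77 and -0.81 on replicate 1) and not in Cy3 (-0.09 and -0.10). For both genes the 2 probes thus agreed in direction on this array.

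**Figure D3:**
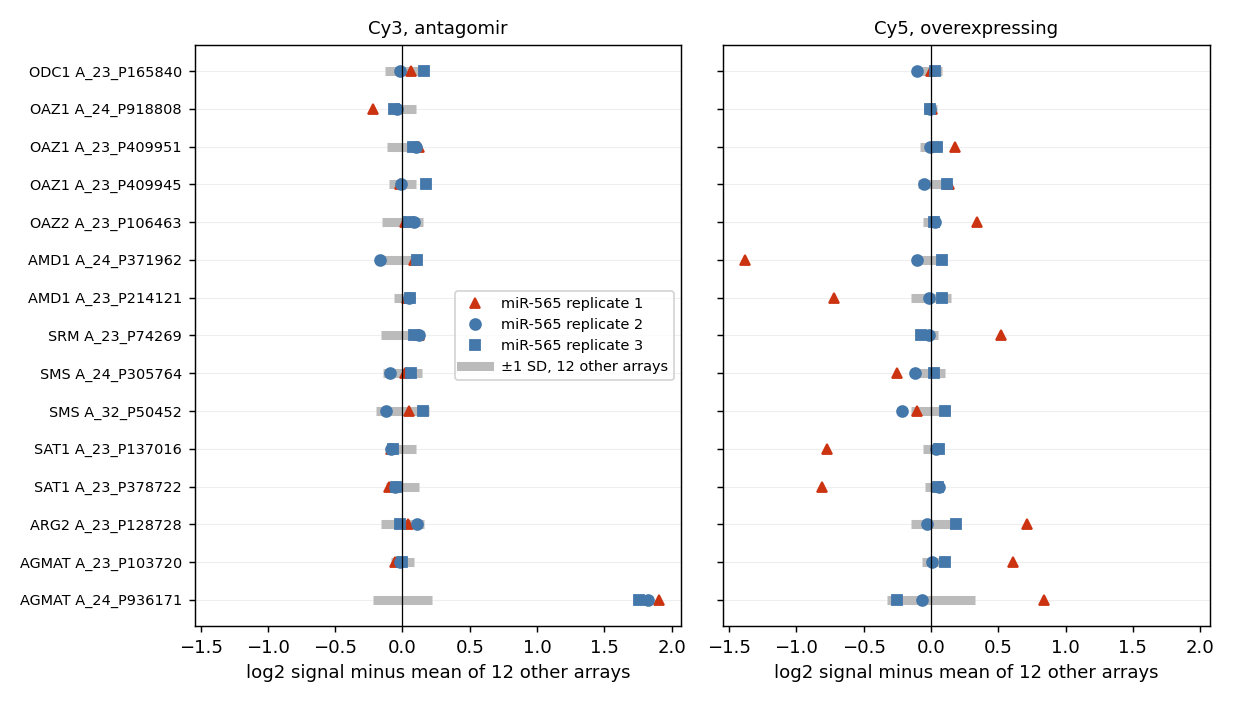
Log2 signal of each member probe on the 3 miR-565 arrays minus the mean of the 12 other arrays in the same dye, after quantile normalization, with 1 SD of those 12 as a gray bar. In Cy3 only the dimmer AGMAT probe is far from 0, on all 3 arrays, and in Cy5 it is replicate 1 that departs, for AMD1, SAT1, SRM, ARG2, OAZ2 and AGMAT.

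Other members were higher in the overexpressing cells on that array. SRM, the synthase of spermidine, had log2 ratios of 0.31, -0.18 and -0.20, with a Cy5 difference of 0.52 on replicate 1. ARG2 had 0.82, 0.01 and 0.36, with a Cy5 difference of 0.71, and its signals were low throughout (28.7 to 77.8). SMS, the synthase of spermine, had -0.43, -0.06 and -0.07 on its brighter probe but 0.03, 0.02 and 0.06 on the other. OAZ2 had 0.16, -0.21 and -0.19. ODC1, the enzyme of putrescine synthesis, was close to 0, with -0.17, -0.08 and -0.11, all below 0. On replicates 2 and 3 the brightest probes of the 9 members lay between -0.21 and 0.36. By its brightest probe no member of the 9 was past 2-fold in the mean of miR-565, where 4.67% of 23006 genes were, and none without replicate 1, where 2.07% were. The dimmer AGMAT probe was the only one of the 15 member probes past 2-fold there.

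**Figure D4:**
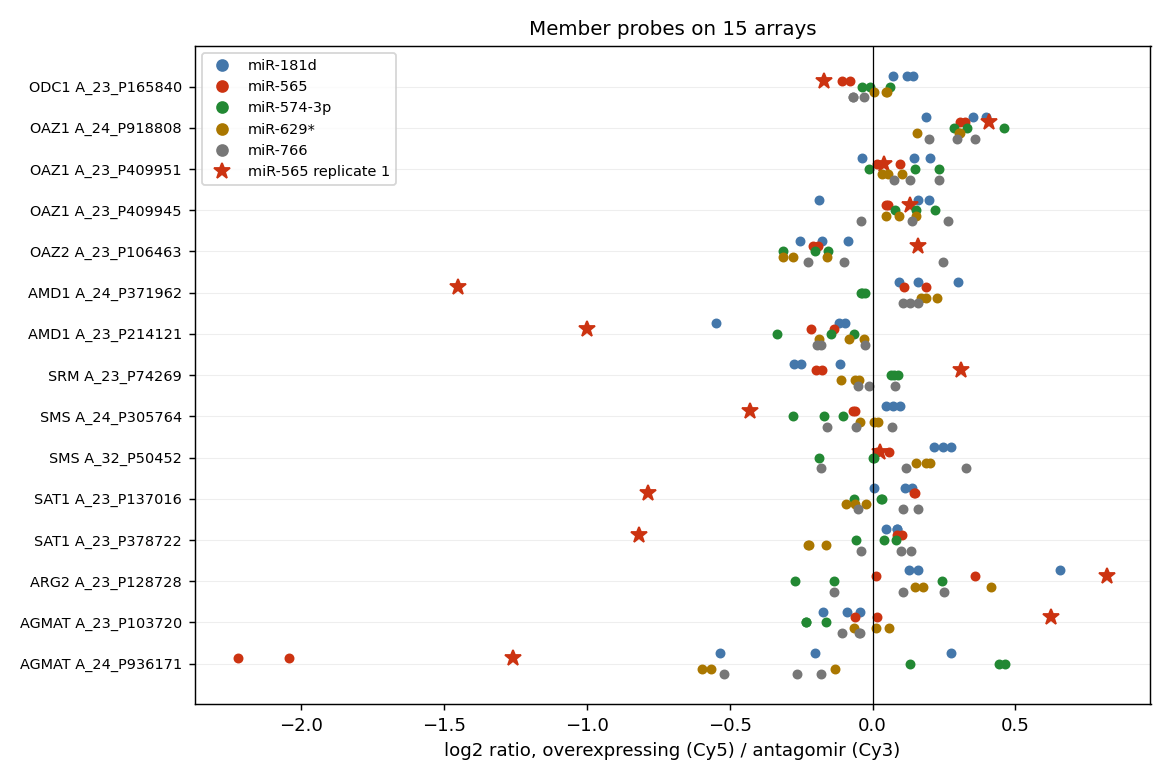
Log2 ratio of the 15 member probes on all 15 arrays, colored by miRNA, with replicate 1 of miR-565 as a star. The star lies outside the other 14 arrays for both probes of AMD1 and of SAT1, for the brighter SMS and AGMAT probes and for SRM, ARG2 and, by little, ODC1, and all other points lie between -0.60 and 0.66 except the dimmer AGMAT probe at miR-565.

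OAZ1, the main antizyme, was the one member called in the fit of 15 arrays. Its brightest probe, A_24_P918808, had log2 ratios of 0.19, 0.40 and 0.35 at miR-181d (mean 0.31, SE 0.06, adjusted p = 0.0311), of 0.28, 0.46 and 0.33 at miR-574-3p (mean 0.36, SE 0.06, adjusted p = 0.0123) and of 0.31, 0.30 and 0.16 at miR-629* (mean 0.26, SE 0.06, adjusted p = 0.0358, all limma). At miR-766 it had 0.29, 0.36 and 0.20 (mean 0.28, adjusted p = 0.0664), and at miR-565 0.41, 0.31 and 0.32. The ratio was thus above 0 on all 15 arrays, between 0.16 and 0.46. The difference of a miRNA from the mean of the other 4 was -0.07 to 0.06, and none of the 4 tested was called (lowest limma adjusted p = 0.912). With the slide as a random block in limma, the probe was no longer called at any miRNA (adjusted p of 0.205 to 0.577). In that fit 0%, 0.126% and 0.00869% of all genes were called at miR-181d, miR-574-3p and miR-629*. Of 15 fits that left out 1 array, 8, 12 and 7 kept the call at miR-181d, miR-574-3p and miR-629*. The probe was among the brightest on the array, at place 16, and the 100 brightest probes had median log2 ratios of 0.10 to 0.14. Of these 100, 8 to 19 had a ratio at or above that of OAZ1 at the tested miRNAs.

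The other OAZ1 probes did not give the same ratio. A_23_P409951 had means of 0.06 to 0.15 and A_23_P409945 of 0.06 to 0.15 at the 4 tested miRNAs, and neither was called (limma adjusted p of 0.306 to 0.745). The brightest probe was above A_23_P409951 on all 15 arrays, by a mean of 0.21 ± 0.07 (SD, n = 15), although their ratios rose and fell together (Pearson r = 0.66). All 3 probes lie within a short stretch of the plus strand of chromosome 19 (NCBI36), at 2224174 to 2224233 for the brightest, 2224198 to 2224257 for A_23_P409951 and 2224229 to 2224288 for A_23_P409945. The brightest probe and A_23_P409951 overlap by 36 bases and differ in 1 of them, A55C, counted from the 5′ end of the brightest probe. The 21 bases that end with the last base of the brightest probe are shown for both, with the differing base in capitals, since these are neighboring probes of the same message that gave different ratios.
A_24_P918808: aatcgtgcaaataaaAgctca
A_23_P409951: aatcgtgcaaataaaCgctca

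The number of members called depended on replicate 1 of miR-565, which also enters the spread estimated over all arrays. By the brightest probe, 1 of 9 members was called at miR-181d, 1 at miR-574-3p and 1 at miR-629*, each time OAZ1. Among all genes tested, 3.13%, 3.19% and 7.35% were called in these comparisons. At miR-766 no member was called (1 at an unadjusted p under 0.05), against 0.826% of all genes. Without replicate 1 of miR-565, 4, 3, 3 and 2 members were called at miR-181d, at miR-574-3p, at miR-629* and at miR-766, and the shares of all genes were 24.7%, 19.1%, 32% and 15.2%. The median log2 ratio of the 9 members was 0.09, -0.03, 0.00 and 0.00 at these miRNAs, and that of all genes tested was 0.02, 0.01, 0.03 and 0.01.

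In this fit of 14 arrays, called members other than OAZ1 had small differences. At miR-181d, SRM fell (mean log2 ratio -0.21, adjusted p = 0.00407), while AMD1 (0.18, adjusted p = 0.00787) and ODC1 (0.11, adjusted p = 0.0270) rose. At miR-574-3p, SMS fell (-0.18, adjusted p = 0.0195) along with the brighter AGMAT probe. At miR-629*, AMD1 rose (0.19, adjusted p = 0.00530) and OAZ2 fell (-0.25, adjusted p = 0.0313), and at miR-766 AMD1 rose (0.13, adjusted p = 0.0455). The second AMD1 probe went the other way and was below 0 on all 15 arrays, with means of -0.25 at miR-181d and -0.10 at miR-629* (limma adjusted p of 0.0512 and 0.391 in the same fit). For SMS the second probe was above 0 at miR-181d, at 0.25, 0.21 and 0.27 (mean 0.24, limma adjusted p = 0.0374 in the same fit and 0.106 with all 15 arrays), where the brighter probe had a mean of 0.07. OAZ2 was below 0 on 11 of the 12 arrays other than miR-565. The brighter SAT1 probe was not called at any of the 4 miRNAs. The second SAT1 probe, 589 bases away, had log2 ratios of -0.16, -0.23 and -0.22 at miR-629* (mean -0.20, limma adjusted p = 0.00524 in this fit and 0.368 with all 15 arrays).

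Differences between miRNAs, which do not hold what the dyes do alike on every array, were called for none of the 9 members in the fit of 15 arrays, by limma. At an unadjusted p under 0.05 there were 2 at miR-181d and 0 at each of the other 3. Of all genes, 0%, 0.874%, 0.0391% and 0% were called at miR-181d, at miR-574-3p, at miR-629* and at miR-766. With the slide as a random block, 5 of 9 members were called at miR-181d, namely AMD1, SAT1, SMS, SRM and AGMAT by their brighter probes, where 24.5% of all genes were. AGMAT is counted there as a description, since the mean of the others holds the miR-565 values for which it was put forward. With all miR-565 arrays left out and no slide block, none of these 5 was called at miR-181d (limma adjusted p of 0.131 to 0.952). AGMAT then differed by -0.01. The miR-181d arrays shared their slide with replicate 1 of miR-565. Without that replicate, 2 members differed at miR-574-3p, where 4.05% of all genes did. There SRM was 0.19 higher (adjusted p = 0.0382) and AMD1 by its brighter probe was 0.20 lower, at -0.20 (adjusted p = 0.0320), than at the other miRNAs. The second AMD1 probe differed by -0.015 (limma adjusted p = 0.956). Neither SRM nor AMD1 was called there without all miR-565 arrays (limma adjusted p of 0.110 and 0.0528). The same held with the slide as a random block (limma adjusted p of 0.162 and 0.247), where 0.7% of all genes were called. For differences between miRNAs without the miR-565 arrays, the share of all genes was not computed.

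The channels were then compared between the 12 arrays without miR-565, each miRNA against the other 3 in the same dye. Among these arrays miR-181d, miR-766 and replicates 1 and 2 of miR-574-3p each lay alone on a slide. No slide block was used, so that slide and miRNA cannot be told apart there. In the antagomir channel, 3 of 9 members were called at miR-574-3p, where 8.24% of all genes were. These were AMD1 by its brighter probe, higher by 0.23 (SE 0.05, limma adjusted p = 0.0135), AGMAT by its brighter probe, as given above, and SRM, lower with a difference of -0.22 (SE 0.06, limma adjusted p = 0.0448). The second AMD1 probe differed by only 0.03 (SE 0.04, limma adjusted p = 0.772). For SRM the normalized log2 Cy3 signal was 11.99, 12.01 and 11.98 at miR-574-3p and 12.30, 12.49 and 12.24 at miR-181d, whose arrays lay on a different slide. It was 12.14, 12.22 and 12.28 at miR-629* and 12.14, 12.15 and 11.97 at miR-766. AGMAT by its brighter probe was also called at miR-181d, with a Cy3 difference of -0.11 (SE 0.02, limma adjusted p = 0.0457), where 2.28% of all genes were called. No member was called in Cy3 at miR-629* or miR-766, where 1.02% and 1.65% of all genes were, although the second SAT1 probe was higher by 0.25 at miR-629* (SE 0.03, limma adjusted p = 0.00663). In the overexpressing channel no member was called at miR-181d, miR-574-3p or miR-629*, where 0% of genes were, nor at miR-766, where 0.287% were.

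Of 46 other genes of the pathway, listed from general knowledge by role, 44 were on the array, 4 of them under older names, and 40 were tested. At miR-181d 4 rose and 1 fell, at miR-629* 3 rose and 2 fell, and none was called at miR-574-3p or miR-766 (8 and 10 at an unadjusted p under 0.05 in limma). These 5 of 40 stand beside 3.13% and 7.35% of all genes called at the same miRNAs. None of these calls held with the slide as a random block (where 0% of all genes were called at miR-181d and 0.00869% at miR-629*), or when any 1 array of the same miRNA was left out. For the fits that left out such an array the share of all genes was not computed, so the loss cannot be set against it. No called gene was past 1.5-fold, and the genes below are named because they are few, after their values were seen. EIF5A, the translation factor that carries hypusine, an amino acid made from spermidine, fell at miR-181d (log2 ratio -0.49, adjusted p = 0.0246) and at miR-629* (-0.37, adjusted p = 0.0355). Its paralog EIF5A2 rose at both (0.36, adjusted p = 0.0319, and 0.43, adjusted p = 0.0133). ENOPH1, which acts in the salvage of methylthioadenosine, a product of spermidine and spermine synthesis, also rose at both (0.35, adjusted p = 0.0298, and 0.36, adjusted p = 0.0171).

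**Figure D5:**
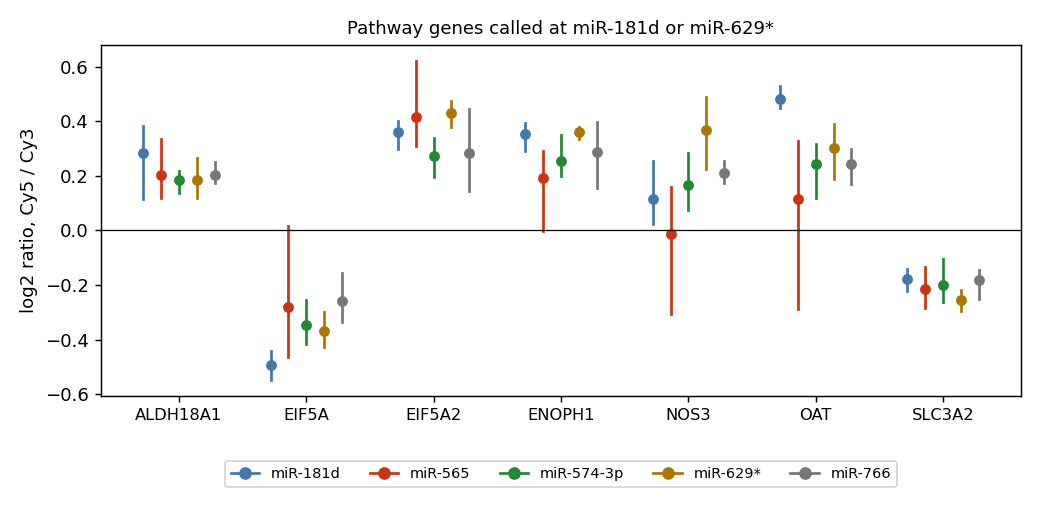
Mean log2 ratio of overexpressing over antagomir cells (points) and the range of 3 arrays (lines) for the 7 pathway genes called at miR-181d or miR-629*, by miRNA. EIF5A and SLC3A2 have means below 0 at all 5 miRNAs, and EIF5A2, ENOPH1, ALDH18A1 and OAT have means above 0 at all 5.

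At miR-181d alone, OAT, which interconverts ornithine and glutamate semialdehyde, rose (0.48, adjusted p = 0.0331), as did ALDH18A1 (0.28, adjusted p = 0.0419), which makes glutamate semialdehyde. At miR-629* alone, the nitric oxide synthase NOS3 rose (0.37, adjusted p = 0.0341) and SLC3A2, the heavy chain of several amino acid transporters, fell (-0.26, adjusted p = 0.0291). Whether a gene differed between these 2 miRNAs was not tested. In the difference of a miRNA from the other 4, which was tested, none of the 40 genes was called at any of the 4 miRNAs by limma (2, 1, 2 and 0 at an unadjusted p under 0.05 at miR-181d, at miR-574-3p, at miR-629* and at miR-766). By role, the called genes came from arginine and ornithine metabolism (2 of 11 at miR-181d and 1 at miR-629*), methylthioadenosine and methionine (1 of 8 at each), hypusine (2 of 4 at each) and transport (1 of 9 at miR-629*). None of 4 genes of synthesis and its regulation and none of 4 of acetylation and oxidation was called.

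MTAP, which recycles methylthioadenosine and lies at 9p21, a region deleted in A549, was read from 3 probes. A_24_P196519 and A_24_P297888 were not well above background on any array, with signals of at most 3.91. A_24_P51118 was well above background in both channels of all 15 arrays, with signals of 160 to 436. The probes thus disagreed on whether MTAP RNA was present, and what A_24_P51118 binds was not tested. Its mean log2 ratio was -0.38 at miR-565 and -0.36 to 0.02 at the other miRNAs. CDKN2A, also listed as deleted at 9p21, had probes that disagreed in the same way. A_23_P43490 was well above background on all 15 arrays (301 to 555) and A_23_P43484 on none (at most 2.36). For CDKN2B, also listed there, the brightest probe was well above background on 0 arrays in Cy3 and 2 in Cy5.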

How the data were processed

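Gene expression was measured on 15 dual-color Agilent arrays of A549 cells, grouped by the miRNA and replicate number in the labels. The authors deposited Feature Extraction 9.5.3.1 output, whose intensity values are processed signals, background-corrected, spatially detrended and LOWESS-normalized between dyes, together with mean and background signals. The deposited series table holds the log10 ratio of each array, red over green, and equals the ratio column of the scanner files (medians of 0 to 0.000327). The authors' later Rosetta Resolver step was not used here.

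In R 4.3.3, 1639 control spots per array were dropped, as were 2296 outlier spots (0 were saturated), and the 264 probes with 10 spots were averaged. The log2 ratio of the deposited processed intensities (Cy5 over Cy3) was fitted with limma 3.58.1 (lmFit, then eBayes with its trend option), with 1 coefficient per miRNA over all 15 arrays, and adjusted by Benjamini-Hochberg over the 31345 probes whose Cy3 or Cy5 signal was well above background on 3 or more arrays. A gene was called at an adjusted p under 0.05 of its brightest probe. For comparisons of a channel, signals were quantile-normalized per dye. The scripts were first tested on simulated data. Precision is limited by the 3 arrays per miRNA.

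The members, the pathway list and the rule for naming were chosen with earlier results of these data known. All member probes are accounted for, pathway genes were to be named past 1.5-fold, with MTAP, and 5 probes most like AGMAT are given. Alternatives were another background correction, centring, the series table, replicate and slide blocks, filters, probe means, outlier spots kept, no trend, the threshold of the study's methods and each array left out. The fits that omit every miR-565 array were added once the data had been seen.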

Additional observations from a re-analysis of the deposited data

Results flagged for a closer look

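The dimmer AGMAT probe (A_24_P936171) was 1.03 higher (log2 ratio) at miR-574-3p than on average at the remaining 4 miRNAs, among them miR-565 with its low values (higher on 3 of 3 arrays). That average holds the values for which AGMAT was put forward, and without the miR-565 arrays the difference was 0.65 (limma adjusted p = 0.0857). The same probe was above 0 on all 3 arrays of miR-574-3p (mean 0.35) and below 0 on all 3 of miR-565 (mean -1.84), a difference of 2.19 that was not tested.

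For 6 other member probes all 3 arrays of a miRNA lay above 0 and all 3 of another below 0. These differences were small and were not tested as pairs. ODC1 was higher at miR-181d than at miR-565 by 0.23, and the brighter SMS probe by 0.26 for the same pair. Without replicate 1 of miR-565 the means at miR-565 were -0.09 for ODC1 and -0.06 for SMS, in place of -0.12 and -0.19. The 2 SAT1 probes were higher at miR-181d than at miR-629* by 0.14 (A_23_P137016) and 0.28 (A_23_P378722). SRM was higher at miR-574-3p than at miR-181d by 0.29, and the brighter AMD1 probe was higher at miR-629* than at miR-574-3p by 0.23. With 15 probes and 5 miRNAs, many pairs were looked at. Single arrays were not tested for standing apart, since each miRNA has 3.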

How the results depend on the processing

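Values are given in the order miR-181d, miR-574-3p, then miR-629* and last miR-766. The log2 ratio of AGMAT at miR-565 was 0.19 by its brighter probe, -0.82 by the mean of its probes and -1.84 by the other probe, whose Cy3 difference was 1.83, and leaving out 1 array gave -0.02 to 0.32. Members called, 1, 1, 1 and 0 of 9, became 2, 1, 2 and 1 with normexp and loess, 2, 1, 1 and 1 with the series table's ratio, and 1 at miR-766 with median centring. They became 0 at each of the 4 with the slide as a random block, with gene values averaged over probes and at the threshold of the study's methods, and 4, 3, 3 and 1 without all miR-565 arrays, a fit chosen after seeing the data in which 21.2%, 16%, 28.6% and 11.9% of all genes were called. Leaving out 1 array gave 0 to 4, 0 to 3, 0 to 3 and 0 to 2, and the upper end came without replicate 1 of miR-565. With the slide block, 0%, 0.126%, 0.00869% and 0% of all genes were called. Apart from these fits, the share of all genes was not computed under the alternatives. Changes in the counts of members and pathway genes there cannot be set against it. Against the other miRNAs, the slide block gave 5 members at miR-181d, with AGMAT counted as a description, beside 24.5% of all genes, and leaving out 1 array gave 0 to 2 at miR-574-3p and 0 elsewhere. Pathway genes called, 5, 0, 5 and 0 of 40, became 10, 5, 10 and 5 with the series table, 4 at miR-574-3p and 1 at miR-766 with normexp, 3 and 1 there with median centring, and 1 at miR-574-3p without the trend. They became 8 at miR-181d without the filter on dim probes, 3 at miR-181d and 3 at miR-629* with probe means, 0 at both with the slide block and at the methods' threshold, and 13, 8, 14 and 8 of 40 without miR-565, beside the shares of all genes given above. Leaving out 1 array gave 0 to 13, 0 to 9, 0 to 16 and 0 to 9. The causes were not tested. Replicate numbers did not pair the arrays (correlations of same-numbered deviations from -0.40 to 0.51). With the replicate block, 1, 1, 1 and 0 members and 4, 0, 5 and 0 pathway genes were called, the AGMAT ratio at miR-565 stayed 0.19, and the difference of the dimmer probe at miR-574-3p stayed 1.03. The AGMAT ratio at miR-565 changed sign with the probe, and for the brighter probe it went from 0.19 to -0.02 without replicate 1. With normexp the dimmer probe had a ratio of -1.53 and a Cy3 difference of 1.38, in place of -1.84 and 1.83. Its ratio kept its sign without replicate 1, at -2.13, with a Cy3 difference of 1.79. The Cy3 difference of the brighter probe was -0.03, and the Cy5 difference of the dimmer one went from 0.17 to -0.16 without that array. The 3 arrays per miRNA limit what can be called, and ARG2, with signals under 78, is the dimmest member.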
